A study of Mus musculus with 16 samples.

Results

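The MHC class II genes of the mouse, with the invariant chain gene Cd74 and the transactivator gene Ciita, were followed in whole retina by bulk RNA-seq. The set was a named list of 8 genes, namely Ciita, H2-Aa, H2-Ab1, H2-Eb1, Cd74, H2-DMa, H2-DMb1 and H2-DMb2. All 8 were found by symbol among the 54532 genes of the uninjected table and by gene identifier among the 48440 genes of the injected table. The set was picked because these genes were low in fatty acid-injected retinas of these same libraries, so their values in that comparison are given as a description, with no test.

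The study addressed ageing of the retina, with Elovl2, which encodes an enzyme that lengthens fatty acids, as the mutated gene and a fatty acid as the treatment. All mice were described as C57BL6/J. Injected retinas came from wildtype mice 18 months old, taken 5 days after either 0.36 nmol of the polyunsaturated fatty acid 24:5 (n = 3) or vehicle alone (n = 3) was put into the vitreous. The vehicle went into the other eye of the treated mice, and the labels do not say which eyes belong together. Uninjected retinas came from mice with an Elovl2 point mutation at 12 months (n = 3), from wildtype mice at 18 months (n = 4) and from wildtype mice at 12 months (n = 3). A point mutation need not alter transcript level, so Elovl2 reads do not check that label. Whether every library is from its own animal is not stated, so p-values reflect spread among these samples, part of which may be technical.

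The injected libraries held 22066668 to 25609242 counts and the uninjected libraries 12810558 to 30519417 reads. Both tables showed the rod genes that define retina, and in injected retinas Gnat1, the rod transducin subunit, had 7688, 7875 and 8216 CPM after 24:5 and 6678, 7726 and 6627 CPM after vehicle. Lens genes, which mark a neighbouring tissue, varied widely among the injected libraries, with Cryaa at 307, 64.2 and 22.6 CPM with 24:5 and at 784, 963 and 63.4 CPM with vehicle. Structural RNAs took 8.54% to 13.4% of counts in injected libraries and under 0.01% of reads in uninjected libraries. Mitochondrial genes took 0.0% of counts in every injected library, where they may not have been counted, and 2.66% to 4.31% of reads in uninjected libraries. Among uninjected retinas, wildtype 12-month replicate 1 stood apart in several of the genes described here.

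Class II molecules are pairs of an alpha and a beta chain that show peptides from taken-up protein to CD4+ T cells. They are made mainly by dendritic cells, B cells and macrophages, and microglia make little of them until activated. The chains assemble on the invariant chain, cathepsins trim that chain to a short fragment, and the DM molecule exchanges the fragment for peptide. Ciita is the co-activator that switches the whole set on, acting through factors bound to X and Y boxes in each promoter. In bulk retina, fewer cells of a type and less RNA per cell cannot be told apart.

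The promoters of H2-Aa, H2-Eb1, H2-DMb1 and H2-DMb2 are shown because Ciita is known to switch these genes on through X and Y boxes, and such letters can be seen in them. Each window runs from 250 bases before to 50 after a transcription start, read 5′ to 3′ on the gene's strand, from RefSeq on GRCm38.p6. The positions are chr17:34287774-34288073 on the minus strand for H2-Aa, and on the plus strand chr17:34305617-34305916 for H2-Eb1, chr17:34152941-34153240 for H2-DMb1 and chr17:34144999-34145298 for H2-DMb2. Capitals mark a Y box core (GATTGG or its reverse complement) in all 4, an X box core (AACNGATG) in 3, and the sequence TGACGTCA, a CRE-like form of the X2 box, in H2-Aa.
H2-Aa: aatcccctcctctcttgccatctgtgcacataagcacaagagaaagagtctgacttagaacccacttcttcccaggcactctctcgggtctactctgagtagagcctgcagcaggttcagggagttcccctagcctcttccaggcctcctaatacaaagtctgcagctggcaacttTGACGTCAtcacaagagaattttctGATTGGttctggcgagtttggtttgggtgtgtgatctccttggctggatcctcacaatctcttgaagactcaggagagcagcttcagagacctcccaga
H2-Eb1: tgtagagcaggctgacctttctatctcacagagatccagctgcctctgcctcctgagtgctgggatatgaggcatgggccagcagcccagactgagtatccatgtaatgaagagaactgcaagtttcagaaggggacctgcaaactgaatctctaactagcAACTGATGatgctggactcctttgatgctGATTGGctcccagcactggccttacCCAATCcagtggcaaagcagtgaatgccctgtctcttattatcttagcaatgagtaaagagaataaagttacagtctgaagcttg
H2-DMb1: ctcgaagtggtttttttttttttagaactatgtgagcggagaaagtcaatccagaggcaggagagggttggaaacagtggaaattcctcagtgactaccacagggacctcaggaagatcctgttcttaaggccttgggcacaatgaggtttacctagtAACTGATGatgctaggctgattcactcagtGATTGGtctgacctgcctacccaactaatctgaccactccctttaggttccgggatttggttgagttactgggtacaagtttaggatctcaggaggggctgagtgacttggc
H2-DMb2: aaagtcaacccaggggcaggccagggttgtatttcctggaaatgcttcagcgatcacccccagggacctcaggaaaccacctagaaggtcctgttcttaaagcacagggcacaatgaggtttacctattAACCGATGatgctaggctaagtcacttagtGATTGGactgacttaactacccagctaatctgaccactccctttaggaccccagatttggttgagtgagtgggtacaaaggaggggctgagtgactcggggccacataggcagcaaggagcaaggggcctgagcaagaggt

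In H2-Eb1 the X core and the Y core were separated by 21 bases. In H2-DMb1 and in H2-DMb2 the gap was 22 bases. H2-Aa had its Y core 49 bases before the start and TGACGTCA 74 bases before it, with no exact X core in the window. Both strands were searched and the motifs did not overlap. An X core was found in 2.32% of the 32851 promoter windows of the same length, a Y core in 16.1% and TGACGTCA in 1.79%. An X core followed by a Y core on the same strand, 10 to 40 bases on, was present in 10 windows (0.0304%), 3 of them in H2-Eb1, H2-DMb1 and H2-DMb2 and 1 in the related chain H2-Eb2. The motif letters were chosen with these promoters in view, so the counts describe the sequences and are no test. RefSeq windows matched 5 of the 8 genes. H2-DMa had windows far from its deposited start, 1 of which held a Y core. The H2-DMb2 window lies inside the gene as deposited. H2-Ab1, Ciita and Cd74 are named only.

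Ciita, the transactivator, lies on chromosome 16 from 10480059 to 10528418 (mm10, plus strand) and overlaps Dexi on the other strand. It had 0.557, 0.635 and 0.450 CPM in 24:5 retinas, against 2.62, 3.64 and 1.91 CPM in vehicle retinas. CPM here are counts per 1000000, scaled by TMM. Every 24:5 library lay below every vehicle library, on 40 counts in all with 24:5 and 190 with vehicle. The log2 fold change was -2.31 ± 0.33 (SE), a 4.94-fold lower level with 24:5. The strand setting of the authors' counting is not given in the sources used here, so reads of Ciita and Dexi may be mixed where they overlap.

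The peptide-binding chains are encoded side by side on chromosome 17. H2-Ab1 runs from 34263209 to 34269418 on the plus strand, H2-Aa from 34282744 to 34287827 on the minus strand, and H2-Eb1 from 34305877 to 34316199 on the plus strand. H2-Aa, the alpha chain of the I-A molecule, had 6.56, 8.46 and 4.01 CPM with 24:5, against 41.2, 50.9 and 23.2 CPM with vehicle. Its partner, the beta chain H2-Ab1, had 5.81, 7.66 and 4.67 CPM with 24:5, against 30.3, 34.7 and 18.0 CPM with vehicle. H2-Eb1, the beta chain of the I-E molecule, had 5.49, 7.45 and 2.99 CPM with 24:5, against 27.0, 32.8 and 14.6 CPM with vehicle. In all 3 chains the highest 24:5 library, replicate 2, stayed below the lowest vehicle library, replicate 3. The log2 fold changes were -2.60 ± 0.39 for H2-Aa, -2.20 ± 0.29 for H2-Ab1 and -2.22 ± 0.43 for H2-Eb1 (SE). H2-Ea, the alpha chain gene of I-E, is listed in these data under the pseudogene symbol H2-Ea-ps. It had 0 reads in every injected and uninjected library. The levels of H2-Eb1 therefore do not show that the I-E molecule was made.

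Cd74, the invariant chain, lies on chromosome 18 from 60803848 to 60812646 on the plus strand and holds the microRNA gene Mir5107 inside it. It had 10.7, 12.8 and 5.69 CPM with 24:5, on 269, 302 and 139 counts. With vehicle it had 62.8, 68.6 and 38.0 CPM, on 1441, 1639 and 856 counts. Per gene length it was the most abundant gene of the set in both injected groups. The groups did not overlap, and the mean was 9.72 ± 3.64 CPM after 24:5 and 56.5 ± 16.3 CPM after vehicle (SD, n = 3 each). The log2 fold change was -2.54 ± 0.37 (SE), a 5.81-fold lower level with 24:5.

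The DM genes encode the peptide exchange molecule, and the log2 fold changes of H2-DMa and H2-DMb1 were nearer to 0 than those of the chains. H2-DMa, its alpha chain, had 3.86, 4.02 and 2.66 CPM with 24:5, against 7.63, 6.65 and 4.88 CPM with vehicle. The groups did not overlap, with a log2 fold change of -0.86 ± 0.24 (SE). H2-DMb1, a beta chain, had 25, 38 and 29 counts with 24:5, against 100, 83 and 32 counts with vehicle. In CPM it averaged 1.26 ± 0.314 after 24:5 and 3.08 ± 1.51 after vehicle (SD, n = 3 each). Vehicle replicate 3 lay below 24:5 replicate 2, so the groups overlapped, with a log2 fold change of -1.29 ± 0.42 (SE). H2-DMb2, the second beta chain gene, had 1, 9 and 1 counts with 24:5, against 14, 22 and 6 counts with vehicle, and was too low for the filter of the fit. Without the filter edgeR gave it -1.95 ± 0.76 (SE), about as far from 0 as the chains, but on few counts and with overlapping groups. The beta chain genes are close copies. Of all stretches of 50 bases in the transcripts of H2-DMb1, 22.7% also occur in H2-DMb2, so the division of reads between them is uncertain.

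**Figure D1:**
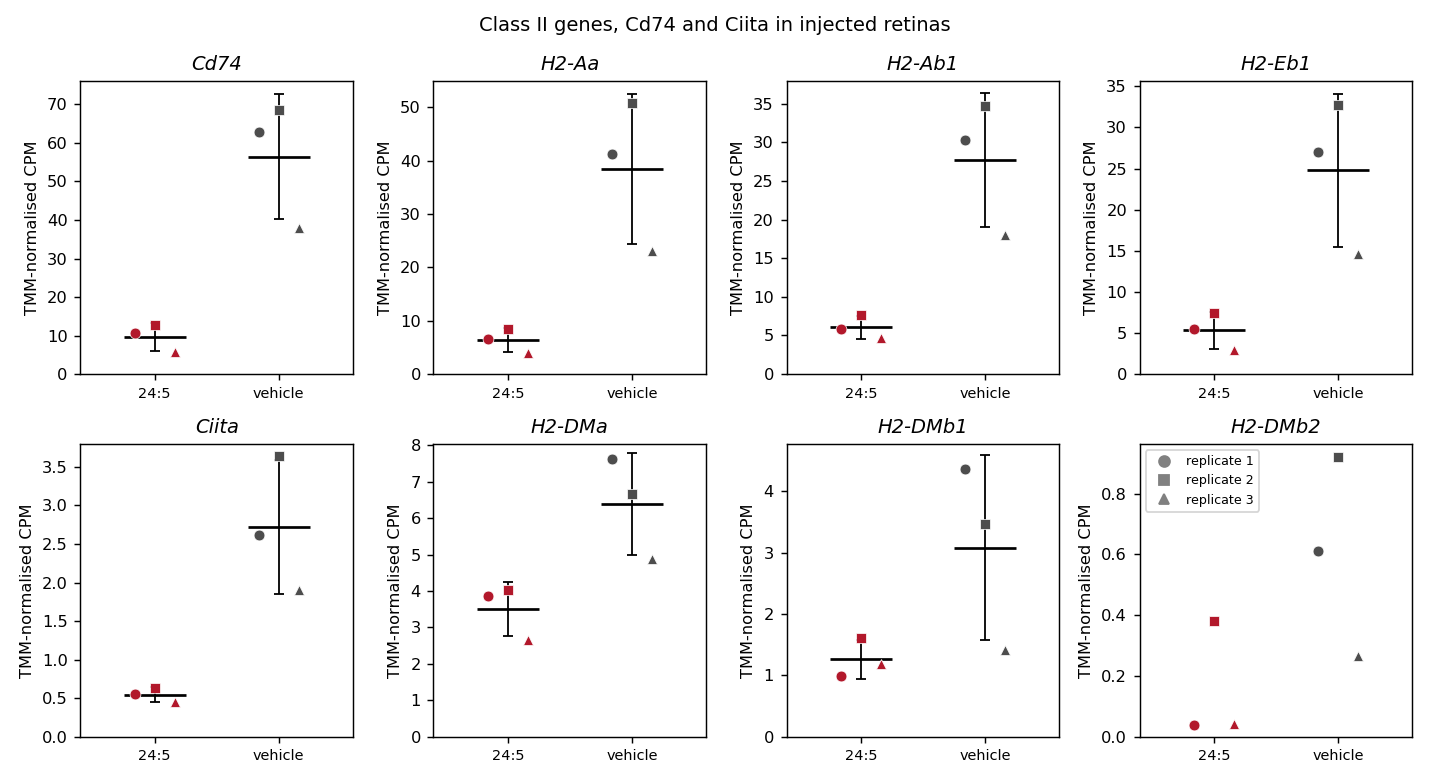
TMM-normalised CPM (vertical axis, from 0) of the 8 genes in each injected retina, 24:5 left and vehicle right. Symbols mark replicates, horizontal lines the mean and bars the SD (n = 3 each); no mean is drawn for H2-DMb2, which had libraries with 1 count. In 6 genes all 24:5 points lie under all vehicle points, while H2-DMb1 and H2-DMb2 overlap.

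Of the 8 genes, 6 were lower in every 24:5 library than in every vehicle library. The same was true of 6.77% of the 17466 genes tested. The median log2 fold change was -2.22 over the 7 genes tested and 0.00 over all genes tested, and all 7 were lower, against 49.2% of all genes. Ciita, Cd74 and the 3 chains were at least 4-fold lower, as were 0.504% of genes tested. In the order of log2 fold changes from the lowest, H2-Aa stood at place 35, Cd74 at 39, Ciita at 56, H2-Eb1 at 61 and H2-Ab1 at 66, with H2-DMb1 at 293 and H2-DMa at 600. The edgeR quasi-likelihood test called 2 genes in all at an adjusted p of 0.05 (0.0115%), with 1154 at an unadjusted p under that value, and neither called gene was in the set. DESeq2 called 245 genes (0.845%), among them Ciita, Cd74 and the 3 chains. These counts are background, and the members among them are no test of the set, since the set was chosen from this comparison.

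The genes also kept a common order among the libraries of each group. Cd74, H2-Aa, H2-Ab1, H2-Eb1 and Ciita all ran from vehicle replicate 2, the highest, through vehicle replicates 1 and 3 to 24:5 replicates 2, 1 and 3, the lowest. H2-DMa differed from that order only in exchanging vehicle replicates 1 and 2. The microglial gene Olfml3, the monocyte gene Ccr2 and the border macrophage gene F13a1 had the same order as H2-DMa. None of 10 microglial marker genes, 10 general leukocyte genes, 8 perivascular macrophage genes, 10 interferon gamma genes or 11 lens genes followed exactly this order. Among 6 monocyte genes Ms4a4c did, and among 8 dendritic cell genes Ccr7 did, the chemokine receptor of migrating dendritic cells. With few counts such an order is weakly determined. That vehicle stood above 24:5 in it follows from how the set was chosen. The share of all genes with this order was not counted, so it is a description.

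**Figure D2:**
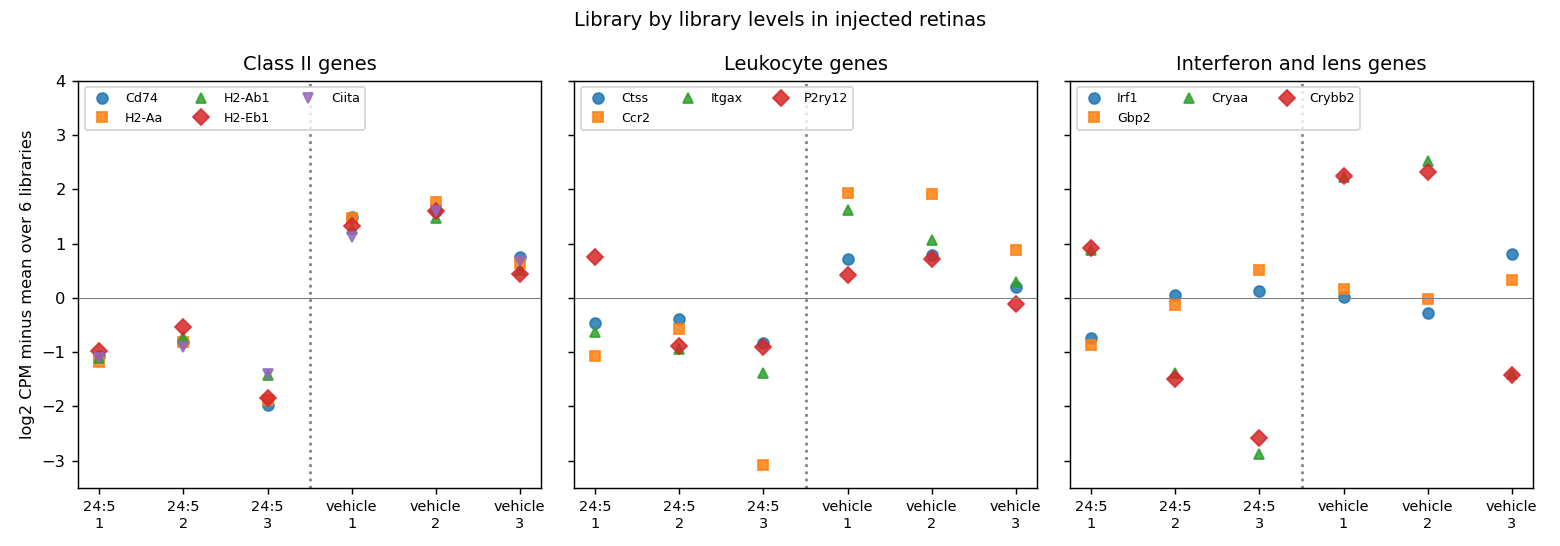
Log2 CPM of each gene minus its mean over the 6 injected libraries (vertical axis), by library, 24:5 left of the dotted line and vehicle right of it. The class II genes fall nearly on each other in every library, whereas the microglial gene P2ry12, the interferon genes and the lens genes follow other orders. P2ry12 was chosen after its values were seen and does not stand for all microglial markers. Its Pearson's r with the mean scaled log2 level of Cd74 and the chains was 0.574. Most other microglial markers were more alike, such as Olfml3 (0.977) and Csf1r (0.926), and only Gpr34 (0.480) and Siglech (0.115) were less alike.

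Ratios within a library were taken after dividing each level by gene length. H2-Aa amounted to 0.497 ± 0.0345 of Cd74 with 24:5 and 0.504 ± 0.0507 of Cd74 with vehicle (SD, n = 3 each). H2-Eb1 amounted to 0.643 ± 0.0444 of Cd74 with 24:5 and 0.513 ± 0.0556 with vehicle. The DM alpha chain differed less than Cd74, so H2-DMa amounted to 0.327 ± 0.0675 of Cd74 with 24:5 and 0.0994 ± 0.0142 with vehicle, with no overlap. Cd74 amounted to 0.199 ± 0.0715 of the sum of 10 microglial markers with 24:5, against 0.672 ± 0.0605 of that sum with vehicle.

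The factors that sit on the X and Y boxes differed little between the injected groups. Of 7 such genes (Rfx5, Rfxap and Rfxank, the X box complex, Nfya, Nfyb and Nfyc, the Y box complex, and Creb1), 5 were higher and 2 lower with 24:5, none was called, and the median log2 fold change was 0.03. Nfyb had 43.9, 43.1 and 48.2 CPM with 24:5, against 42.2, 40.5 and 43.4 CPM with vehicle. Rfx5 had 27.5, 26.7 and 22.7 CPM with 24:5, against 25.9, 28.2 and 24.4 CPM with vehicle. The groups overlapped in all 7. They did not in Ciita, but Ciita was picked for its low level with 24:5, so setting it beside these genes is no test.

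Interferon gamma is the classical inducer of Ciita, and genes of its pathway were described beside the class II genes. Ifng itself had no counts in any of the 6 injected libraries. Irf1, a direct target, had 8.55, 14.8 and 15.5 CPM with 24:5, against 14.3, 11.8 and 24.8 CPM with vehicle. It was lowest in 24:5 replicate 1 and highest in vehicle replicate 3, which was the lowest of the vehicle libraries for Cd74. Of the 8 genes of this list that were tested, 6 were lower and 2 higher with 24:5, at a median log2 fold change of -0.08, and none was called. Pearson's r with the mean scaled log2 level of Cd74 and the chains over the 6 libraries was 0.778 for Ifngr1 and 0.794 for Ifngr2. Ifngr2, the receptor's second chain, was the only one of them without overlap, at 17.3, 19.1 and 19.7 CPM with 24:5 and 23.5, 21.6 and 22.5 CPM with vehicle.

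Genes for peptide supply, listed together with Marchf1 and Marchf8, which have another role, were partly lower. Of 10 tested, 9 were lower and 7 did not overlap, while 6.77% of all genes tested were lower without overlap. None was called, and the median log2 fold change was -0.37. Ctss, the cathepsin that makes the last cuts in the invariant chain, had 50.1, 52.8 and 38.8 CPM with 24:5, against 114, 120 and 79.4 CPM with vehicle. Ifi30, a reductase that opens disulfides of antigens, averaged 5.47 ± 1.26 CPM after 24:5 and 12.7 ± 2.68 CPM after vehicle (SD, n = 3 each). Ctsh averaged 24.2 ± 2.95 CPM with 24:5 and 44.7 ± 7.31 CPM with vehicle. Of the remaining class II chains, H2-Ea had no reads and the others were near the limit of detection. H2-Oa, the alpha chain of the DM inhibitor DO, averaged 0.134 ± 0.160 CPM with 24:5 and 0.650 ± 0.268 CPM with vehicle, and its partner H2-Ob averaged 0.380 ± 0.216 CPM with 24:5 and 0.643 ± 0.279 CPM with vehicle.

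Genes for contact with T cells were mostly at lower levels. Of 6 tested, 5 were lower and 1 was higher with 24:5, at a median log2 difference of -0.56 and none called. Icam1, an adhesion molecule, had 2.51, 5.08 and 2.87 CPM with 24:5, against 10.9, 7.40 and 5.46 CPM with vehicle. Cd274, which encodes PD-L1, had 3.94, 5.12 and 6.55 CPM with 24:5, against 6.89, 5.73 and 14.6 CPM with vehicle, and overlapped.

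Markers of cells that can make class II were lower with 24:5 too, to different degrees. All 10 microglial markers were lower, at a median log2 fold change of -0.69, and 2 of them did not overlap. Their summed level per length ran from 26.1 to 62.2 with 24:5 and from 49.4 to 81.6 with vehicle, in reads per kilobase and per 1000000 shared protein-coding reads. P2ry12, a receptor of resting microglia, had 6.56, 2.12 and 2.09 CPM with 24:5, against 5.23, 6.40 and 3.59 CPM with vehicle. All 10 general leukocyte genes were lower, with a median of -1.10 and 9 without overlap (6.77% of all genes tested were lower without overlap). Ptprc, which encodes CD45, had 6.84, 5.84 and 3.68 CPM with 24:5, against 21.4, 21.0 and 10.1 CPM with vehicle.

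Genes of border macrophages and monocytes were lower as well. Of 8 perivascular and border macrophage genes, 6 were tested and all 6 were lower, at a median log2 difference of -2.16 and with summed levels of 2.93 to 4.98 with 24:5 and 5.12 to 14.7 with vehicle. Of 6 monocyte genes, the 3 tested were all lower, with a median of -2.78 and summed levels of 0.407 to 1.59 with 24:5 and 3.33 to 9.998 with vehicle. Of these, Ms4a4c had 9, 18 and 2 counts with 24:5, against 52, 115 and 27 with vehicle. Plac8 had 31, 4 and 6 counts with 24:5, against 36, 70 and 22 with vehicle. Genes this low after 24:5 could enter the fit on their vehicle counts, which favours values below 0 in both lists. Ccr2, the receptor that brings monocytes into tissue, had 2.47, 3.47 and 0.614 CPM with 24:5, against 19.8, 19.6 and 9.54 CPM with vehicle. Ms4a7, a macrophage gene, averaged 0.516 ± 0.337 CPM after 24:5 and 4.16 ± 2.42 CPM after vehicle (SD, n = 3 each). None of these genes was called by edgeR, and the part that numbers of such cells have in the class II difference was not tested.

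Dendritic cell genes were split. Itgax, which encodes CD11c and is shared with activated macrophages, had 1.31, 1.06 and 0.778 CPM with 24:5, against 6.24, 4.27 and 2.49 CPM with vehicle. Zbtb46, a factor of conventional dendritic cells, averaged 5.80 ± 0.298 CPM with 24:5 and 6.14 ± 0.658 CPM with vehicle, and Flt3 averaged 4.09 ± 0.804 CPM with 24:5 and 4.30 ± 0.678 CPM with vehicle. The summed level of the 8 genes was 2.05 to 2.15 with 24:5 and 2.55 to 4.19 with vehicle, and Clec9a was at 0 in all 24:5 libraries. Lymphocyte markers were low. Of 7 B cell genes, the 6 on the common scale summed to 0.0912 to 0.297 with 24:5 and 0.376 to 0.796 with vehicle. The gene left out of that sum was Ighm, the heavy chain of IgM, with 67, 13 and 11 counts with 24:5, against 47, 55 and 25 counts with vehicle. Of 8 T cell genes, the 7 on the common scale summed to 0.373 to 1.05 with 24:5 and 0.622 to 1.31 with vehicle, with Cd3e at most 0.177 CPM in any injected library. Lck, a kinase of the T cell receptor, had 26, 13 and 13 counts with 24:5, against 57, 23 and 28 counts with vehicle. All 10 lens genes tested were lower as well, from -2.87 to -0.93 with a median of -1.87, but none without overlap, and their part in the result was not tested.

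**Figure D3:**
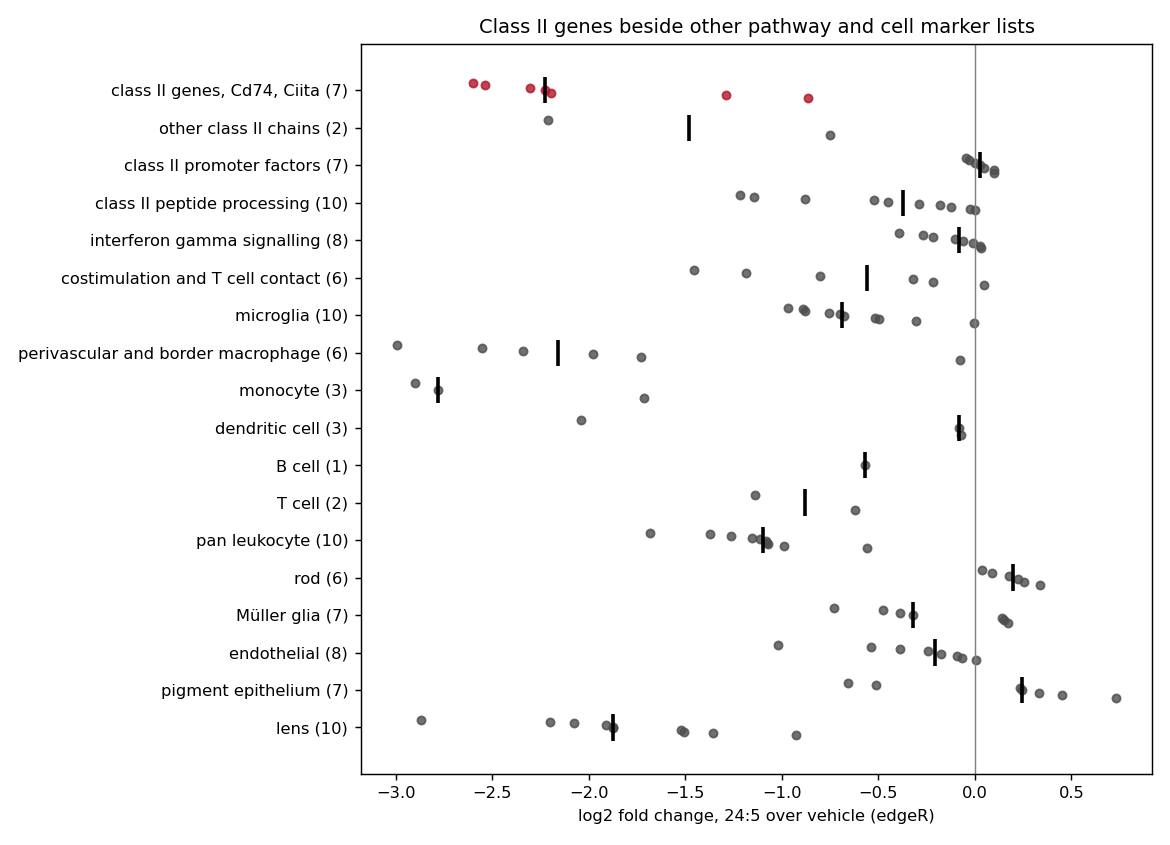
Log2 fold change of each tested gene, 24:5 over vehicle (horizontal axis), in rows by list with the number tested in brackets; points are genes and vertical bars are medians. The class II genes lie between -2.60 and -0.86, a range that overlaps those of the border macrophage, monocyte and lens genes, whereas the promoter factors have a median of 0.03.

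The genes most like the chains and Cd74 across the 6 injected libraries were ranked by Pearson's r with their mean scaled log2 level, among 17459 genes. The first 10 were Vcam1 (r = 0.998), Wdfy4 (0.997), Ctss (0.997), an unnamed gene, Bmx, Lcp1, Zfp217, Ccr2, Lrrc25 and Casp1. Ciita reached 0.983, H2-DMa 0.963 and H2-DMb1 0.863. Vcam1, an adhesion molecule for leukocytes, had 20.8, 21.5 and 16.8 CPM with 24:5, against 37.7, 39.8 and 30.8 CPM with vehicle. Wdfy4, known for its role in cross-presentation by dendritic cells, had 1.83, 2.28 and 1.02 CPM with 24:5, against 6.72, 6.94 and 4.22 CPM with vehicle. These r values describe 6 points that fall into separate 24:5 and vehicle clusters, and many genes reach high values over so few points.

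Levels in injected and uninjected retinas were then set side by side on a scale common to both tables, reads per kilobase and per 1000000 reads of the 21721 protein-coding genes listed in both. The tables were made and normalised separately, so injection and library preparation cannot be told apart and no test was made. Cd74 stood at 8.91, 10.3 and 4.52 with 24:5 and at 52.8, 56.4 and 31.0 with vehicle, against 0.709 to 1.424 in uninjected wildtype retinas of the same age. H2-Aa averaged 3.88 ± 1.38 with 24:5 and 23.9 ± 8.85 with vehicle (SD, n = 3 each), against 0.311 ± 0.163 in uninjected 18-month wildtype retinas (n = 4). Each chain was higher in every injected library, 24:5 included, than in any of the 10 uninjected libraries. For Cd74 this held for vehicle, and 24:5 replicate 3 lay below uninjected wildtype 12-month replicate 1.

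The gap to uninjected retina was unequal within the set. Relative to uninjected 18-month wildtype retina, 24:5 retinas stood at 12.5-fold for H2-Aa, 9.50-fold for H2-Eb1, 8.07-fold for Cd74 and 2.93-fold for H2-Ab1. Vehicle retinas stood at 77.0-fold for H2-Aa, 45.2-fold for H2-Eb1, 47.7-fold for Cd74 and 13.7-fold for H2-Ab1. H2-DMa was at 0.971 with 24:5 and at 1.80 with vehicle. Ciita was at 0.479 with 24:5 and at 2.43 with vehicle. For Ciita the 24:5 libraries overlapped those of uninjected 18-month wildtype retina, with 24:5 replicate 2 at 0.0756 and wildtype replicate 1 at 0.0729. The vehicle libraries ran from 0.230 to 0.443 and lay above that wildtype group, which reached 0.197. They overlapped 12-month wildtype retina, where replicate 2 stood at 0.302. Other genes were taken from 50 reads up over the 4 uninjected 18-month wildtype libraries. H2-Aa, with 32 reads there, and H2-Eb1, with 35, were under that minimum, so their ratios are less certain. The ratio for the 13525 other genes had a median of 0.956 with 24:5 and 0.990 with vehicle, and 95% of them were under 2.22 with 24:5 and under 2.51 with vehicle. The lowest 5% were under 0.423 with 24:5 and under 0.432 with vehicle, so both Ciita ratios lay inside the spread of other genes. The 10 microglial markers had a median of 1.33 with 24:5 and 2.09 with vehicle, and 5 lens genes with enough reads had 5.61 with 24:5 and 21.4 with vehicle.

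**Figure D4:**
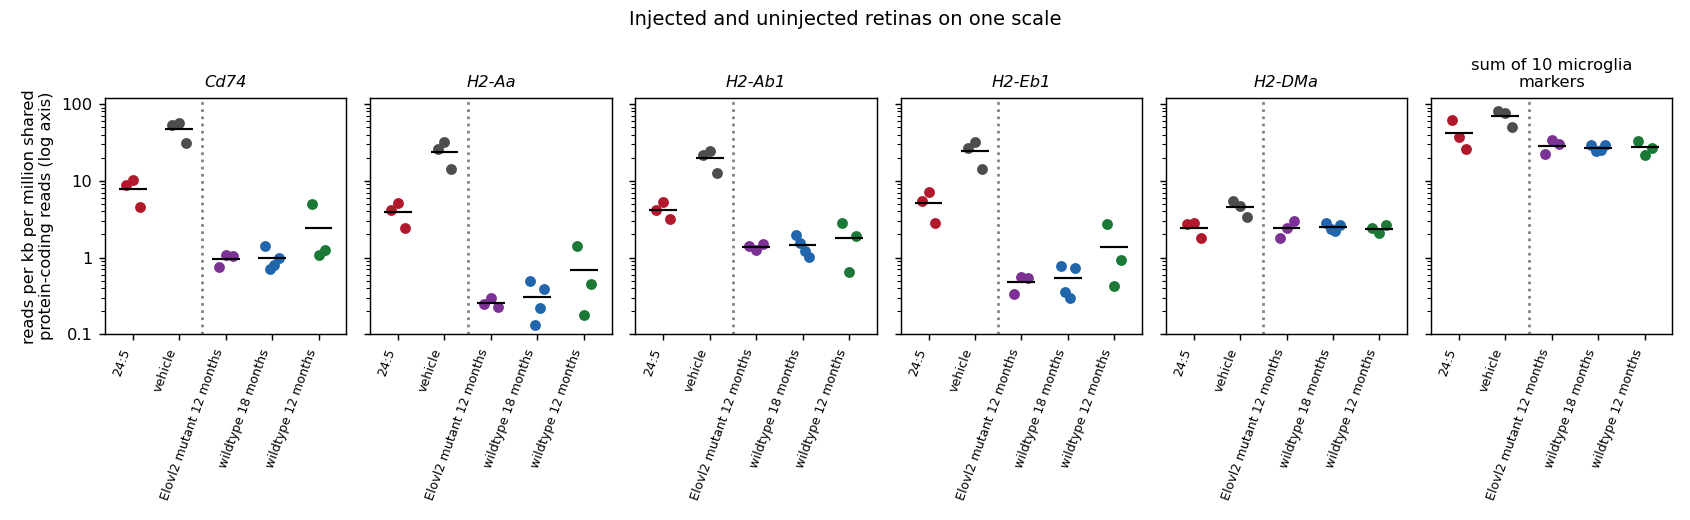
Reads per kilobase and per 1000000 shared protein-coding reads (vertical log axis) for 5 genes and for the sum of 10 microglial markers in each library; bars are group means, and the dotted line parts the separately made injected and uninjected tables. The 3 chains lie higher in every injected library than in every uninjected one, while H2-DMa with 24:5 lies among the uninjected values.

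The order of levels per length also differed between tables. With 24:5 it was Cd74 (7.91), H2-Eb1 (5.14), H2-Ab1 (4.22), H2-Aa (3.88), H2-DMa (2.45), H2-DMb1 (0.970), H2-DMb2 (0.102) and Ciita (0.0657). With vehicle the order was Cd74 (46.8), H2-Eb1 (24.5), H2-Aa (23.9), H2-Ab1 (19.7), H2-DMa (4.55), H2-DMb1 (2.43), H2-DMb2 (0.409) and Ciita (0.333). In both groups the ranges of the 3 chains overlapped each other. In uninjected 18-month wildtype retinas H2-DMa led at 2.53, followed by H2-Ab1 at 1.44, Cd74 at 0.980, H2-Eb1 at 0.541, H2-DMb1 at 0.531, H2-Aa at 0.311, Ciita at 0.137 and H2-DMb2 at 0.0317. There H2-Eb1 and H2-DMb1 were level within their spread. H2-Ab1 amounted to 0.982 ± 0.197 of its partner H2-Aa over the 6 injected retinas, against 5.00 ± 2.67 over the 10 uninjected retinas, where it ranged from 2.0 to 11.4. The uninjected ratio rests on few reads, since H2-Aa had 29 reads over the 3 mutant retinas and 32 over the 4 wildtype retinas of 18 months.

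Among uninjected retinas the set was at low levels. The authors' values there are FPKM, fragments per kilobase and per 1000000 fragments. Only Cd74, H2-Ab1 and H2-DMa reached a mean of 1 FPKM and entered the limma test. Cd74 did so through wildtype 12-month replicate 1, and without that library it fell under the minimum and had no limma value. Cd74 had 0.672, 0.962 and 0.944 FPKM in Elovl2 mutant retinas, 1.25, 0.635, 0.707 and 0.888 FPKM in wildtype retinas at 18 months, and 4.29, 0.972 and 1.10 FPKM in wildtype retinas at 12 months. Wildtype 12-month replicate 1 was far above the others, on 180 reads against 12 to 44 in the remaining 9. H2-Ab1 had 1.27, 1.09 and 1.35 FPKM in mutant retinas, 1.74, 1.37, 1.10 and 0.910 FPKM in 18-month wildtype retinas, and 2.40, 0.589 and 1.70 FPKM in 12-month wildtype retinas. H2-DMa had 1.62, 2.16 and 2.70 FPKM in mutant retinas, 2.48, 2.14, 2.01 and 2.36 FPKM in 18-month wildtype retinas, and 2.07, 1.86 and 2.34 FPKM in 12-month wildtype retinas.

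With age, comparing wildtype at 18 with wildtype at 12 months, the log2 differences of FPKM + 1 were -0.59 ± 0.30 for Cd74, -0.11 ± 0.23 for H2-Ab1 and 0.07 ± 0.12 for H2-DMa (SE), all with a limma adjusted p of 0.9999. The groups overlapped in all 3 (2.22% of genes tested were lower without overlap), and limma called 0 genes (0.0%), with 503 of 13786 at an unadjusted p under 0.05. These differences are on a scale that understates the change of low genes. On reads recovered from the FPKM, edgeR gave -1.30 ± 0.49 for Cd74 and -1.31 ± 0.57 for H2-Eb1 (adjusted p of 0.9998 each), and called 1 gene in all (0.00571%), which was not in the set. The same fit gave -1.11 ± 0.61 for H2-Aa, -0.31 ± 0.50 for Ciita and 0.30 ± 0.48 for H2-DMb1, which was higher at 18 months in every fit that held it. Without wildtype 12-month replicate 1 the values were -0.24 ± 0.35 for Cd74, -0.33 ± 0.54 for H2-Eb1, -0.04 ± 0.58 for H2-Aa, -0.37 ± 0.59 for Ciita and 0.80 ± 0.55 for H2-DMb1. In limma without that library H2-Ab1 turned to 0.13.

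The genotype comparison used the same 12-month wildtype libraries. Elovl2 mutant minus wildtype gave -0.59 ± 0.32 for Cd74, -0.13 ± 0.25 for H2-Ab1 and 0.02 ± 0.13 for H2-DMa (SE), each with a limma adjusted p of 0.9998. Cd74 was lower in every mutant library than in every wildtype library, as were 2.92% of genes tested, though the highest mutant value of 0.962 FPKM lay next to the lowest wildtype value of 0.972 FPKM. Limma called 0 genes (0.0%), with 302 below 0.05 unadjusted, and neither edgeR nor DESeq2 called any on recovered reads (0.0%). Without wildtype 12-month replicate 1 the edgeR log2 difference of Cd74 was -0.25 ± 0.36, against -1.31 ± 0.53 with it. Wildtype retinas at 18 months minus mutant retinas at 12 months gave 0.00 ± 0.30 for Cd74, 0.02 ± 0.23 for H2-Ab1 and 0.05 ± 0.12 for H2-DMa, with a limma adjusted p of 1.0 each. There limma called 0 genes (0.0%), 295 had an unadjusted p under 0.05, and DESeq2 on recovered reads called 11.

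The 5 lower genes are described by library. H2-Aa had 0.221, 0.263 and 0.203 FPKM in mutant retinas, 0.435, 0.119, 0.2 and 0.350 FPKM in 18-month wildtype retinas, and 1.2, 0.163 and 0.401 FPKM in 12-month wildtype retinas. H2-Eb1 had 0.300, 0.495 and 0.482 FPKM in mutant retinas, 0.689, 0.315, 0.263 and 0.654 FPKM in 18-month wildtype retinas, and 2.33, 0.386 and 0.821 FPKM in 12-month wildtype retinas. In both chains wildtype 12-month replicate 1 was again the highest of the 10. Ciita ranged from 0.0556 to 0.272 FPKM and was at 0.141 FPKM in that replicate, neither the highest nor the lowest value. H2-DMb1 ranged from 0.201 to 0.778 FPKM, and H2-DMb2 had 0 to 4 reads in each library. The groups overlapped in all 5.

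**Figure D5:**
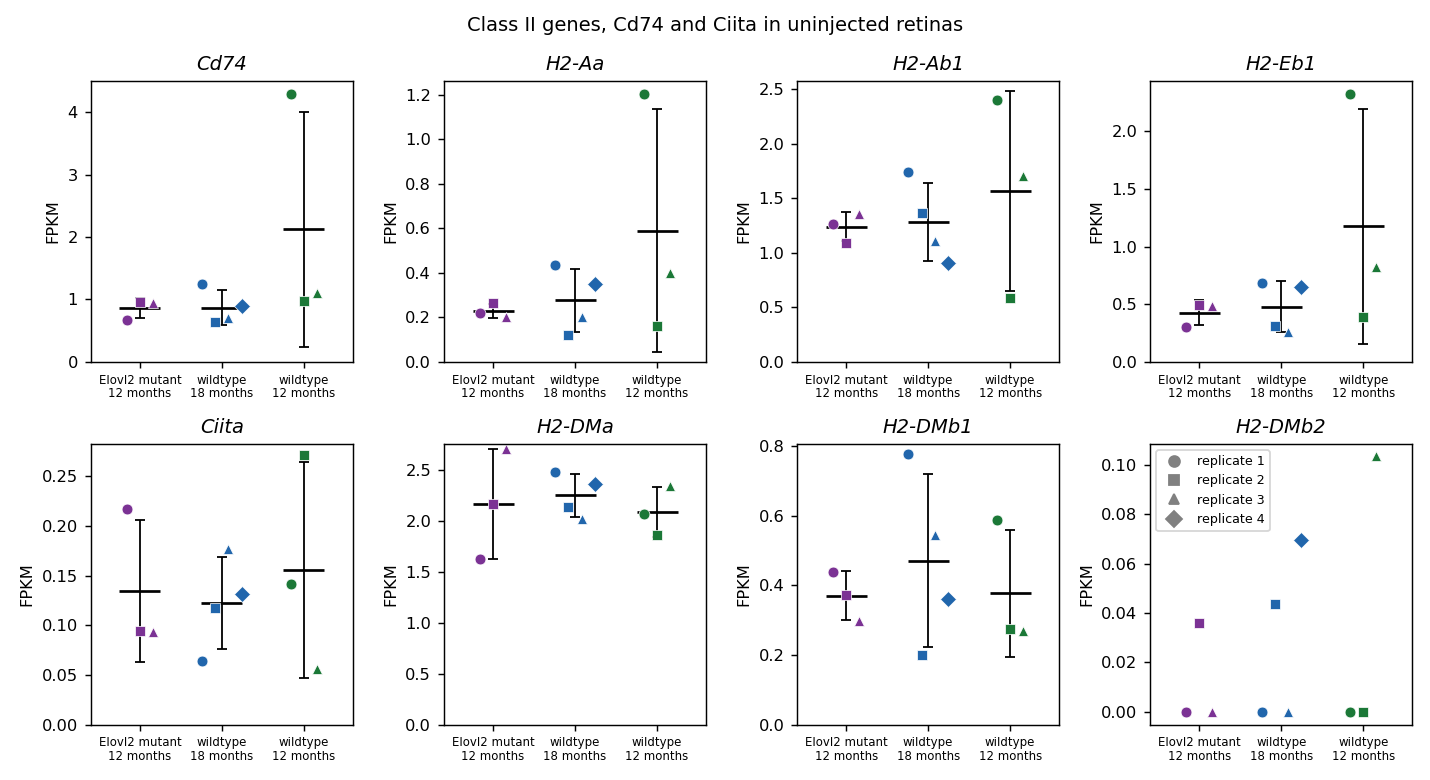
FPKM (vertical axis, from 0) of the 8 genes in each uninjected retina, Elovl2 mutant, then wildtype at 18 months, then wildtype at 12 months. Lines and bars are mean and SD (n = 3, 4 and 3), with none for H2-DMb2, which had libraries at 0. Wildtype 12-month replicate 1 is the top point for Cd74 and the 3 chains.

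That replicate was also the highest of the 10 for genes outside the set. On the common scale Gfap, the stress gene of astrocytes and Müller glia, stood at 16.1 there and at no more than 8.58 in the other 9. Mrc1, a gene of perivascular macrophages, stood at 0.278 there and at no more than 0.157 in the rest. The 8 perivascular and border macrophage genes summed to 4.68 in it and to 3.51 to 5.42 in the other 9. That sum rests mostly on Lyve1, with a mean of 3.70 out of 4.35 in 18-month wildtype retinas. Lyve1 was lowest in wildtype 12-month replicate 1, at 2.24. Cd163 had 39 reads in that replicate and at most 9 in any other, F13a1 32 and at most 19, and Pf4 11 and at most 2. Stab1 had 143 and at most 99, whereas Ms4a7 and Cbr2 were not highest in it. The pigment genes Pmel and Tyrp1 had 3.23 and 2.88 FPKM in it. Pmel (r = 0.948), Tprkb (0.945) and Tyrp1 (0.942) led the 13783 genes ranked by likeness to Cd74 and the chains over the 10 uninjected retinas. The microglial markers summed to 33.5 in it and to 21.4 to 33.6 in the other 9, so it was not apart in these. In the same ranking Ciita had r = -0.31 and H2-DMa had r = 0.17. Over the injected retinas Ciita had r = 0.983, but there the treated and vehicle groups formed separate clusters, and the set was chosen by that difference. Over the uninjected retinas wildtype 12-month replicate 1 was the highest for Cd74 and the chains, and Ciita reached at most 0.272 FPKM. The r values are therefore not comparable, and whether Ciita follows these genes only after injection was not tested.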

How the data were processed

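RNA-seq libraries of 16 mouse retinas were analysed from 2 tables. The shares of structural RNAs and mitochondrial genes differed between the tables, so a common preparation is not shown. The authors deposited raw read counts per gene for 6 injected retinas and FPKM values per gene, with length, symbol and mm10 position, for 10 uninjected retinas, per the file headers. HISAT2 2.2.1, featureCounts 2.0.6 and DESeq2 1.42.0 with mm10 are named, without role or order, per the submitters' processing notes. Which annotation and which strand setting were used is not given in the sources used here. All sample columns were used.

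Counts were tested with edgeR 4.0.16 (R 4.3.3; quasi-likelihood, robust, TMM, filterByExpr) over 17466 genes. FPKM values were tested with limma 3.58.1 (trend, robust) on log2(FPKM + 1), over 13786 genes (mean FPKM 1 or more), in 1 fit of 3 groups. Adjusted p-values are Benjamini-Hochberg values over all genes tested, two-sided, with a threshold of 0.05. FPKM times length gave whole reads, within 0.02, for 100.0% of values above 0. Depth limits the low genes, and counts cover counting error only. Replicates all differed by more than counting noise (chi-square per degree of freedom 3.06 or more).

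The members and the 18 other gene lists were chosen with earlier results of these data known. Named genes are all members, per list up to 4 with the smallest p after 24:5 and up to 2 in each uninjected comparison, and the 10 most alike; others given (Gnat1, Rfx5, P2ry12, Cryaa, Gfap and low marker genes) were chosen after their values were seen. Motif letters were chosen after the promoters were seen. Promoters are from RefSeq (GRCm38.p6), symbols from the files and a table of gene names. Alternatives were DESeq2, other size factors, no filter, another pseudocount, reads recovered from FPKM, a replicate block and leaving out each library. The procedure was tested on simulated data.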

Additional observations from a re-analysis of the deposited data

How the results depend on the processing

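After 24:5, log2 fold changes of the 7 tested genes stayed below 0 under every alternative, and their median ranged from -2.49 to -2.0. In 14 of 75 combinations of gene and alternative a member passed the threshold that it missed in the main fit; as the comparison chose the members, this is a description. Genes called numbered 2 in the main fit, 85 without a filter, 245 with DESeq2, 88 with a replicate block, and 0 to 105 leaving out 1 library, with 105 without vehicle replicate 3. Same-numbered 24:5 and vehicle retinas had deviations correlated at 0.505, -0.314 and 0.561, so the numbers were not taken to pair the samples, and not every sample correlated best with its own number. With age, calls were 0 in the main fit, 4 without a filter, 1 with edgeR on reads, 9 with DESeq2, and 2 with edgeR on reads without wildtype 12-month replicate 1, a choice made after seeing the data. For genotype they were 4 without a filter and 2 with that last fit. For 18-month wildtype against mutant they were 1 without a filter and 11 with DESeq2. Uninjected members changed sign where they lay near 0. H2-Ab1 ran from -0.42 to 0.13 with age and from -0.44 to 0.11 for genotype when 1 library was left out, and edgeR on reads without wildtype 12-month replicate 1 gave 0.14 and 0.0868. For genotype, H2-DMa ran from -0.10 to 0.15, and H2-DMb1 was -0.0526 with edgeR and -0.0421 with DESeq2. For 18-month wildtype against mutant, Cd74 was -0.0087 with a pseudocount of 0.1 and -0.0066 with a replicate block, and ran from -0.0917 to 0.0625 when 1 library was left out, H2-Ab1 from -0.0768 to 0.0972 and H2-DMa from -0.0769 to 0.17. The cause of these turns was not tested. The block changed no other call. Depth limits Ciita, H2-DMb1 and H2-DMb2 in uninjected retinas.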
